A study of Homo sapiens with 16 samples.

Results

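A set of 10 genes with line-specific H3K4me3, a histone mark of promoters, was described across 3 histone marks in the breast cancer line MDA-MB-231 and the non-tumorigenic breast epithelial line MCF-10A. The genes were IGFBP7, PDE10A, CREB3L1, CACNA2D1, MAGI2 and EDIL3, which had H3K4me3 in MDA-MB-231, and FGF2, FAM110C, KCNK5 and FAM84A, which had it in MCF-10A. They were chosen by their measured H3K4me3, and the peaks assigned to them were all those within 5 kb of the 10 gene starts on hg19. These were 45 of the 192665 peaks in the 12 lists, and the 10 windows were set beside windows on all other merged H3K4me3 regions, 18047 windows in all. H3K4me3, H3K27me3 and H3K9me2 were mapped by chromatin immunoprecipitation and sequencing (ChIP-seq), with 2 biological replicates for each mark in each line. MDA-MB-231 is labelled as derived from a metastatic site, and MCF-10A as luminal ductal cells; both were lab-maintained stocks harvested subconfluent, with no treatment named in the labels. MCF-10A was cultured with EGF, insulin, cholera toxin and hydrocortisone, so line and culture cannot be told apart. Each group is 1 cell line, and line identity was not checked against marker genes, because no hg19 annotation was used here.

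H3K4me3 is laid down at the starts of active and poised genes. H3K27me3 is the mark of Polycomb repressive complexes, and it often lies at unmethylated CpG-rich promoters of developmental genes, where it can occur together with H3K4me3. H3K9me2 marks silent chromatin, often over long domains. The genes have unlike roles. FGF2 is a secreted growth factor that signals through FGF receptors, IGFBP7 is a secreted member of the insulin-like growth factor binding protein superfamily, and EDIL3 is a secreted matrix protein that binds integrins. KCNK5 is a background potassium channel, and CACNA2D1 is an auxiliary subunit of voltage-gated calcium channels. MAGI2 is a scaffold protein of cell junctions. FAM110C is a centrosome-associated protein, and FAM84A carries an LRAT-like domain. PDE10A hydrolyses cyclic nucleotides, and CREB3L1 is a transcription factor held in the endoplasmic reticulum membrane until it is cleaved.

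The sequences just before 6 of the starts are shown to let the letters be read beside the marks found around them. KCNK5 and FAM84A had H3K27me3 in MDA-MB-231, and CACNA2D1, MAGI2 and EDIL3 had it in MCF-10A. FAM110C, with H3K27me3 in neither line, is given for comparison. Each run holds the 250 bases before the start in the RefSeq promoter table (GRCh38.p14), 5′ to 3′ on the gene's strand, with every CG in capitals. KCNK5 is chr6:39229476-39229725 on the minus strand, FAM84A (LRATD1 in RefSeq) is chr2:14632467-14632716 on the plus strand, CACNA2D1 is chr7:82443957-82444206 on the minus strand, MAGI2 is chr7:79453668-79453917 on the minus strand, EDIL3 is chr5:84384881-84385130 on the minus strand and FAM110C is chr2:46506-46755 on the minus strand. The distance between these starts and the hg19 starts was not determined.
KCNK5: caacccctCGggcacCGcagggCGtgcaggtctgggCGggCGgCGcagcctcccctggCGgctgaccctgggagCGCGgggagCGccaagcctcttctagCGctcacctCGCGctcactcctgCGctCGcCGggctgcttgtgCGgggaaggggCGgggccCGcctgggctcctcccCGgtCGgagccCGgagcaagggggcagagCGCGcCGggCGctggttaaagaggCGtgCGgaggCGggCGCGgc
FAM84A: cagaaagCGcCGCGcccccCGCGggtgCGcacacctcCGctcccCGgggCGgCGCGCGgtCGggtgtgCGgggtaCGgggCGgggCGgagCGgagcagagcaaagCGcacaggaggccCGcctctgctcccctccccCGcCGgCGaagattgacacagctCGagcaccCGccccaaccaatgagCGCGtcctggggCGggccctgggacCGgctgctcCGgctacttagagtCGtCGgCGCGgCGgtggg
CACNA2D1: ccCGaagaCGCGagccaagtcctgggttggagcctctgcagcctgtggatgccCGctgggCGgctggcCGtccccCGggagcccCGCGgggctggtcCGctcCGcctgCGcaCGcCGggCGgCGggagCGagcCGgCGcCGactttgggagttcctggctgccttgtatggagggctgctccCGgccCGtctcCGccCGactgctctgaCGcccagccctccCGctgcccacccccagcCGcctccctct
MAGI2: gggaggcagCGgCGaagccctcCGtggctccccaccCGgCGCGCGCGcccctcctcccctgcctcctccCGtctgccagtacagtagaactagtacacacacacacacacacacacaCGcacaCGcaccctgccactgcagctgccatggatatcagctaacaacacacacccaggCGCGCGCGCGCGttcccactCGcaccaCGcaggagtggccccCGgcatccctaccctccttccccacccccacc
EDIL3: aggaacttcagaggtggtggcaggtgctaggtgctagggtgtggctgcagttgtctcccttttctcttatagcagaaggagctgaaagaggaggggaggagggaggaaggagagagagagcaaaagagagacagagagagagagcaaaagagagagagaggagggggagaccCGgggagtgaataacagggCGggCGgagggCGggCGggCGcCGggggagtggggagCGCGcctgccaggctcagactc
FAM110C: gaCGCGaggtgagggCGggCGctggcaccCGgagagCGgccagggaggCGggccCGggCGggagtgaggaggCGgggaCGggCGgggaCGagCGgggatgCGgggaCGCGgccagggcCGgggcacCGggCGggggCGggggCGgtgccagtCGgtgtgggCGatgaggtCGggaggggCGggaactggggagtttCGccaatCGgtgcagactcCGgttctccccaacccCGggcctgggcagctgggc

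The 6 sequences differed in how many CG they held. FAM84A held 35, KCNK5 31, FAM110C 30, CACNA2D1 27 and MAGI2 20, against a median of 11 in the 35116 promoters of the table. EDIL3 held 9, and only 45.9% of promoters held fewer. The GC content was 61.2% in EDIL3 and 68.0% to 78.4% in the other 5, against a median of 58%. Of the 10 genes, 9 matched the table. The table's start lies 17.5 kb inside the gene's outer end for CREB3L1 and 325 kb inside it for PDE10A, so these sequences may not belong to the starts whose marks are described. On both strands, GGGCGG, the core of the Sp1 motif, occurred in 7 of these 9 and in 42.6% of all promoters. TATAAA and TGANTCA occurred in none of the 9, and in 10.7% and 6.57% of all promoters. CANNTG occurred in 4 of the 9 and in 61.8% of all promoters.

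The H3K4me3 lists held 16578 and 16193 peaks in MDA-MB-231, and 15568 and 16776 in MCF-10A. The H3K27me3 list of MDA-MB-231 replicate 1 was short, covering 6.54 Mb, against 19.6 Mb to 21.5 Mb in the other 3 lists of that mark. Read counts are not part of the lists and depth is unknown, so an absent peak means only that none was listed. Copy number was not measured here.

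H3K4me3 was present at all 10 starts in both replicates of 1 line and in no list of the other. Of the 10, 6 had it in both MDA-MB-231 lists and neither MCF-10A list, a pattern found in 5.75% of all windows, and 4 had it in both MCF-10A lists and neither MDA-MB-231 list, found in 5.4%. This is the property by which the genes were selected, so its values are a description without a test. All 10 genes had more than the median cover of their kind. The mean bases covered by H3K4me3 ranged from 1966.5 bp (CREB3L1) to 3585 bp (EDIL3) in the 6 genes and from 2008 bp (FGF2) to 3570 bp (FAM84A) in the 4, against a median of 819.25 bp over all MDA-MB-231-only windows and 921.5 bp over all MCF-10A-only windows.

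**Figure D1:**
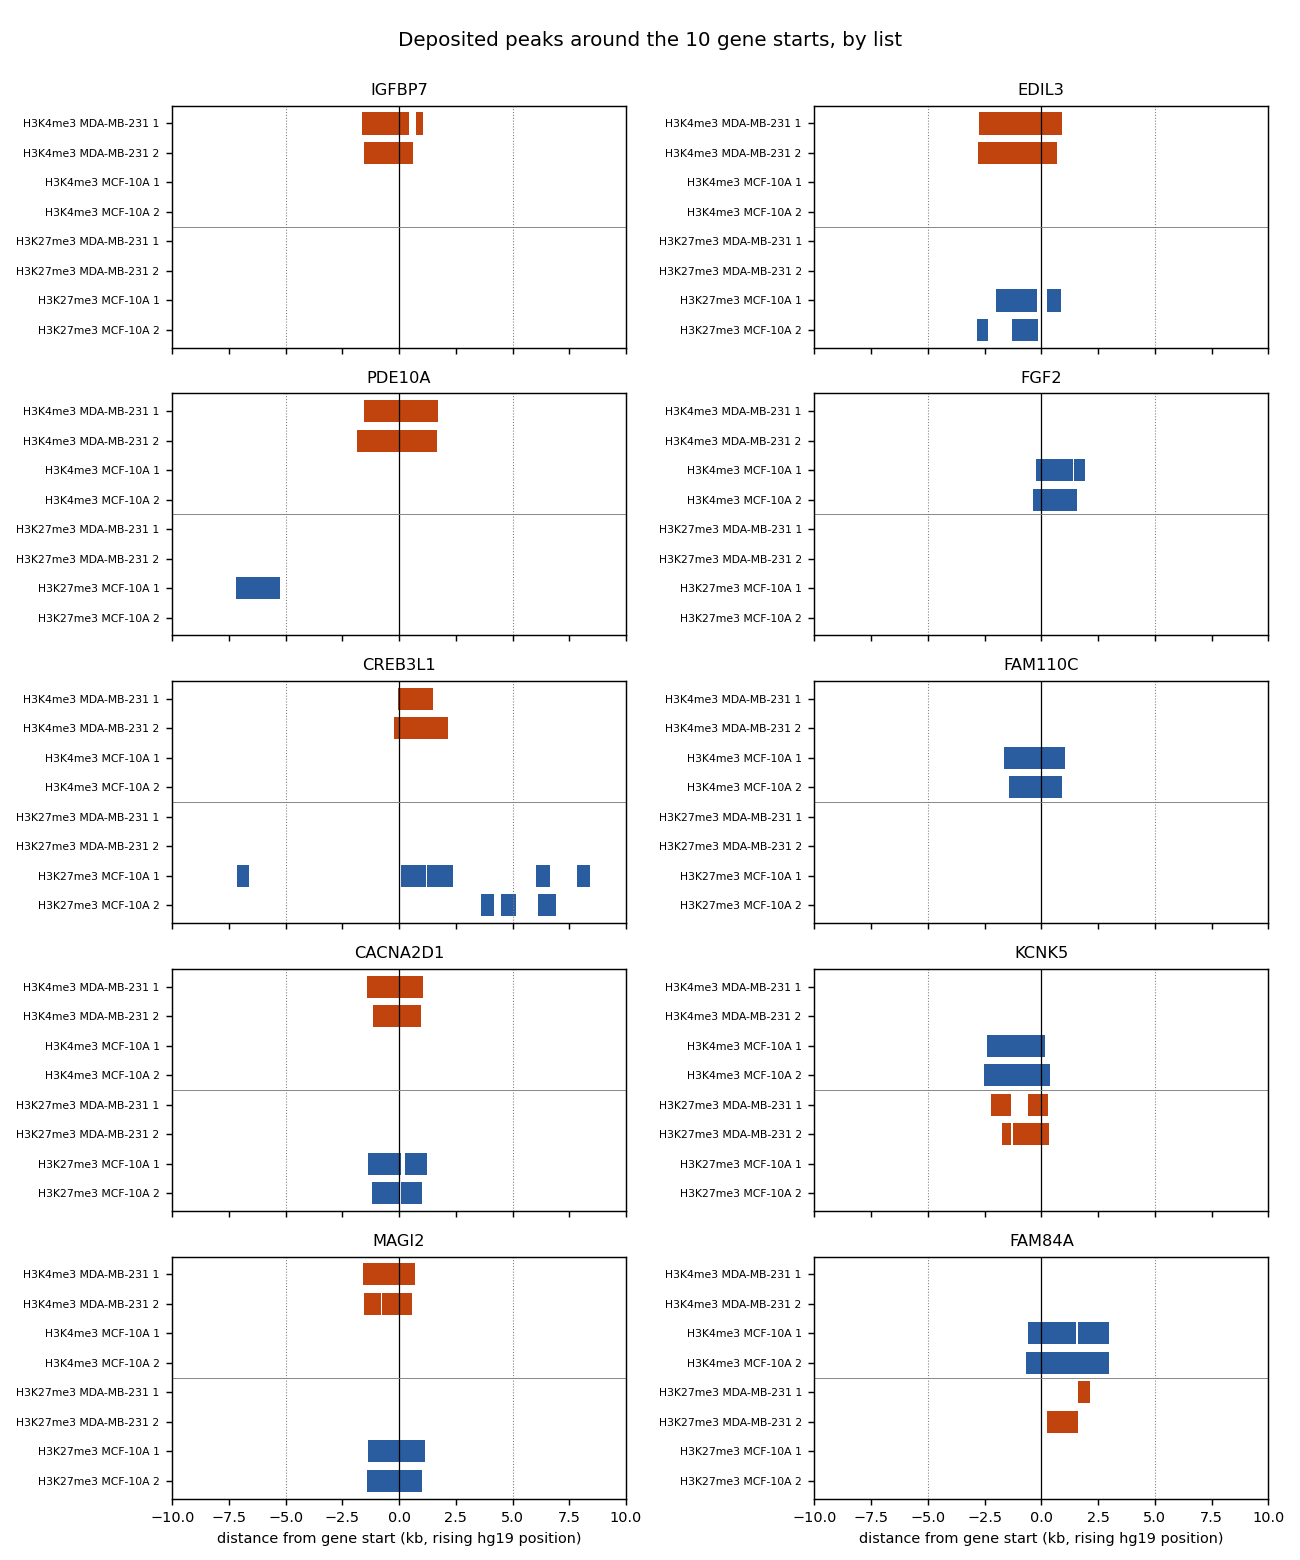
Deposited peaks of H3K4me3 and H3K27me3 around each gene start, 1 row per list, against distance in kb in the direction of rising hg19 position (MDA-MB-231 orange, MCF-10A blue; dotted lines 5 kb either side). H3K27me3 lies under the position of the other line's H3K4me3 at CACNA2D1, MAGI2, EDIL3 and KCNK5, and there is none within 5 kb at IGFBP7, PDE10A, FGF2 and FAM110C. At FAM84A it lies under a smaller part, and at CREB3L1 only in MCF-10A replicate 1.

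Among the genes with H3K4me3 in MDA-MB-231, PDE10A and EDIL3 had the broadest peaks. At PDE10A (chr6, start 166075588, minus strand) a single peak of 3274 and 3508 bp in MDA-MB-231 replicates 1 and 2 reached 1723 and 1671 bp upstream and 1550 and 1836 bp into the gene, against no peak in either MCF-10A list. At EDIL3 (chr5, start 83680611, minus strand) the peaks measured 3681 and 3489 bp in MDA-MB-231, against none in MCF-10A, and lay mostly inside the gene, 2759 and 2793 bp past the start. At both genes the replicates differed in width by far less than the width itself.

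IGFBP7 (chr4, start 57976551) was covered over 2387 and 2181 bp in MDA-MB-231 replicates 1 and 2, and over 0 bp in both MCF-10A lists. In replicate 1 this was a main peak and a small second one of 327 bp, which was not listed separately in replicate 2. CACNA2D1 (chr7, start 82073114, minus strand) was covered over 2463 and 2102 bp in MDA-MB-231, against 0 bp in both MCF-10A lists. CREB3L1 (chr11, start 46299189, plus strand) was covered over 1561 and 2372 bp in MDA-MB-231, against 0 bp in both MCF-10A lists. Its peak lay almost wholly inside the gene, reaching only 47 and 225 bp upstream, and its replicates differed most of the 6 (mean 1966.5 ± 573.5 bp, SD, n = 2).

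MAGI2 (chr7, start 79082890, minus strand) did not bear out the name of a strong peak. It was covered over 2299 and 2070 bp in MDA-MB-231, against 0 bp in both MCF-10A lists, but in each replicate as a pair of peaks. Its highest scores, the authors' own value per peak on a scale not given in the sources used here, were 215.76 and 272.07. Only 25.0% and 25.3% of the peaks in these lists scored lower, whereas for the other 9 genes the share was 61.5% to 99.4%. MAGI2 therefore shared the line-specific presence and the covered length of the others, but not their rank.

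By score in MCF-10A replicate 1, FGF2 and KCNK5 ranked highest of the 4 genes with H3K4me3 in MCF-10A, at 3167.4 and 3147.02. FAM110C had 3100 there, a score that 10.3% of that list reached or exceeded. As the scale is not given, the order among scores of 3100 or more may carry no meaning. FGF2 (chr4, start 123747863, plus strand) was covered over 0 bp in both MDA-MB-231 lists, against 2098 and 1918 bp in MCF-10A replicates 1 and 2, and its main peak in MCF-10A replicate 1 outscored 99.4% of its list. KCNK5 (chr6, start 39197251, minus strand) was covered over 0 bp in both MDA-MB-231 lists, against 2577 and 2895 bp in MCF-10A, most of it inside the gene, and outscored 99.2% of the list of MCF-10A replicate 1. In MCF-10A replicate 2 all 4 genes had the score 3100, which 28.4% of that list reached or exceeded, so 71.6% of its peaks scored lower and ranks above that are tied.

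FAM84A (chr2, start 14772810, plus strand) had the longest H3K4me3 of the 4. It was covered over 0 bp in both MDA-MB-231 lists, against 3486 bp in MCF-10A replicate 1, as a pair of peaks, and 3654 bp in replicate 2, as a single peak. FAM110C (chr2, start 46588, minus strand) was covered over 0 bp in both MDA-MB-231 lists, against 2669 and 2361 bp in MCF-10A. The peak of FAM84A that lay farthest from a start, 1617 bp away, was still well inside the 5 kb limit. The nearest H3K4me3 peak outside it was at CREB3L1, 17.3 kb into the gene in MDA-MB-231 replicate 1. Such a peak also lay 17.5 kb in for MDA-MB-231 replicate 2 and 17.6 kb in for MCF-10A replicate 2 (score 78.3). In MCF-10A replicate 1 the nearest was 33.7 kb away. The RefSeq start of CREB3L1 lies 17.5 kb inside the gene's outer end, so these peaks may lie at another start. The line-specific pattern holds for the start used here only.

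**Figure D2:**
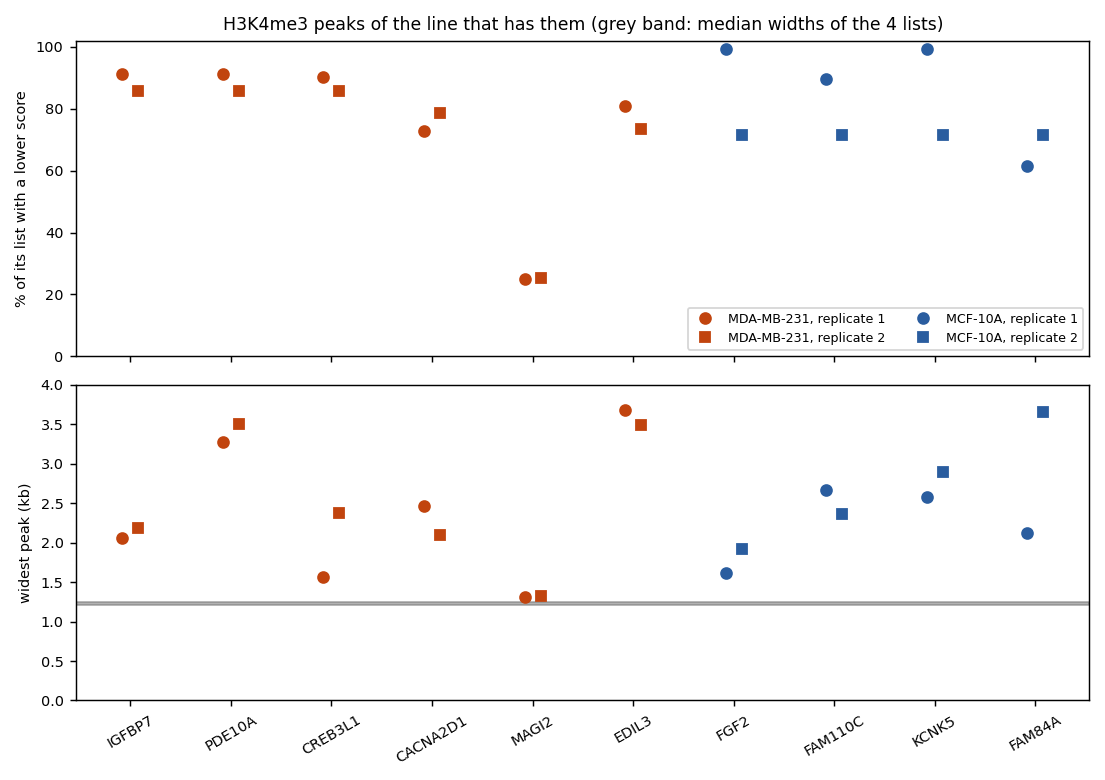
Highest rank (share of the list's peaks with a lower score, in percent, upper panel) and widest peak (kb, lower panel) of H3K4me3 at each gene, in the line that has it, with 1 point per replicate. MAGI2 sits at 25.0% and 25.3%, the other genes at 61.5% or more, and all widest peaks lie above the median widths of 1207 to 1246 bp.

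H3K27me3 was found at 6 of the 10 starts, each time in the line without H3K4me3. KCNK5 and FAM84A had it in both MDA-MB-231 lists and neither MCF-10A list, a pattern found in 0.942% of all windows. CREB3L1, CACNA2D1, MAGI2 and EDIL3 had it in both MCF-10A lists and neither MDA-MB-231 list, found in 4.46% of all windows. Set against windows with the same H3K4me3 pattern, 4 of the 6 genes with MDA-MB-231-only H3K4me3 had MCF-10A-only H3K27me3, compared with 18.6% of the 1038 such windows. Of the 4 genes with MCF-10A-only H3K4me3, 2 had MDA-MB-231-only H3K27me3, compared with 5.95% of 974 such windows. None of the 10 had H3K27me3 in a list of the line that had H3K4me3. Such a peak was found in 13.4% of the windows with MDA-MB-231-only H3K4me3 and in 17.8% of those with MCF-10A-only H3K4me3, so its absence is what most of these windows show. FGF2, FAM110C, IGFBP7 and PDE10A had none in any list, as had 85.2% of all windows. The genes had been named with earlier results of these data in view, so these shares were not tested. The windows also lie on any merged H3K4me3 region, at a gene start or not. Their median H3K4me3 cover was 819.25 bp (MDA-MB-231 only) and 921.5 bp (MCF-10A only), below that of all 10 genes. They are therefore not matched to the genes. Shares for both MDA-MB-231 lists also depend on the short list of MDA-MB-231 replicate 1.

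**Figure D3:**
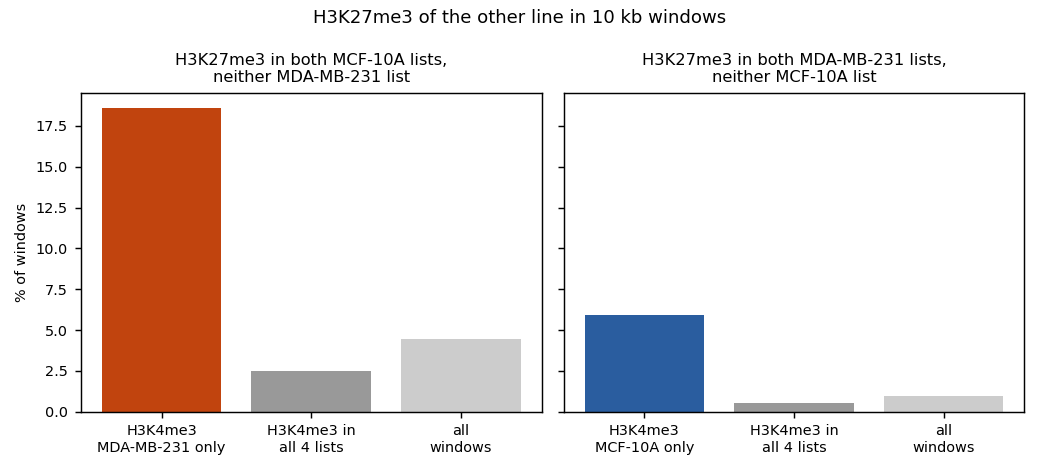
Share of 10 kb windows (percent) with H3K27me3 in both MCF-10A lists and neither MDA-MB-231 list (left) and the reverse (right), among windows with H3K4me3 in the other line only, in all 4 lists, and among all windows. On the left the bars stand at 18.6%, 2.51% and 4.46%, on the right at 5.95%, 0.553% and 0.942%.

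The covered bases were tested with limma over all 1636 windows that had H3K27me3 in at least 2 of the 4 lists, with Benjamini-Hochberg adjustment and a threshold of 0.05. H3K27me3 cover was higher in MDA-MB-231 in 163 windows (9.96%) and lower in 839 (51.3%). The short list of MDA-MB-231 replicate 1 can bear on this imbalance, since peaks in both MDA-MB-231 lists are harder to reach. With lists of equal length, 141 windows were higher and 569 lower of 1009. The cause of the imbalance was not tested. The 6 genes with the mark passed, 2 higher and 4 lower in MDA-MB-231. A gene with peaks in both lists of a single line enters the test only through that line, and 93.5% of the windows with MDA-MB-231-only H3K27me3 and 98.3% of those with MCF-10A-only H3K27me3 passed, so the call adds little to the presence itself. In simulated cover the test also called unchanged windows, whose peaks were placed without regard to line. The exact two-sided permutation test of 2 against 2 lists cannot go below p = 0.333.

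MAGI2 had the longest H3K27me3 of the 6 genes. It was covered over 0 bp in both MDA-MB-231 lists, against 2524 and 2430 bp in MCF-10A replicates 1 and 2 (limma adjusted p = 0.000991, lower in MDA-MB-231 in 2 of 2 lists). This was a single peak across the start in each list, with scores above 99.2% and 98.6% of the lists. The scaffold gene with the lowest-ranked H3K4me3 thus had the highest-ranked H3K27me3 of the 4 genes with that mark in MCF-10A. EDIL3 was close behind, above 98.4% and 98.3%, although its H3K4me3 ranked above 80.8% and 73.4% of the MDA-MB-231 lists. CACNA2D1 was covered over 0 bp in both MDA-MB-231 lists, against 2423 and 2128 bp in MCF-10A (limma adjusted p = 0.000991). Its H3K27me3 was split by a gap near the start in both replicates, from 61 to 246 bp upstream in replicate 1 and from 43 to 93 bp in replicate 2.

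EDIL3 was covered over 0 bp in both MDA-MB-231 lists, against 2416 and 1663 bp in MCF-10A (limma adjusted p = 0.00146). Its main peak ended 171 and 145 bp inside the gene in MCF-10A replicates 1 and 2, so the start itself lay outside H3K27me3 in both lists. CREB3L1 was covered over 0 bp in both MDA-MB-231 lists, against 2222 and 1059 bp in MCF-10A (limma adjusted p = 0.00519). Here the replicates did not share a position. In MCF-10A replicate 1 the peaks ran from 97 to 2361 bp into the gene, and in replicate 2 from 3626 to 5171 bp into it. With windows of 2 kb either side, peaks of score 100 or more, or lists of equal length, CREB3L1 no longer had H3K27me3 in both MCF-10A lists and was not tested.

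KCNK5 was covered over 1803 and 1962 bp in MDA-MB-231 replicates 1 and 2, against 0 bp in both MCF-10A lists (limma adjusted p = 0.000991, higher in MDA-MB-231 in 2 of 2 lists). The peaks spanned the start and a second peak lay further inside the gene in both replicates. FAM84A was covered over 534 and 1380 bp in MDA-MB-231, against 0 bp in both MCF-10A lists (limma adjusted p = 0.0136). Its replicates nearly missed each other, since the peak ran from 14774419 to 14774952 in MDA-MB-231 replicate 1 and from 14773042 to 14774421 in replicate 2, an overlap of 3 bp.

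The covered bases at KCNK5 and FAM84A are the same with either MCF-10A list left out, both lists being at 0, but no call was then made. Those fits called 0 of 764 and 0 of 791 windows in either direction, and the 4 genes with MCF-10A-only H3K27me3 were not tested in them. Without MCF-10A replicate 1 or 2 the limma adjusted p was 0.533 or 0.518 for KCNK5, within a range of 0.000192 to 0.533 over its alternatives, and 0.533 or 0.623 for FAM84A, within a range of 0.00146 to 0.623. In the short list of MDA-MB-231 replicate 1 the highest scores were 96.14 at KCNK5 and 69.7 at FAM84A, so with a minimum score of 100 neither gene had H3K27me3 in both MDA-MB-231 lists. In MDA-MB-231 replicate 2 they were 264.01 and 182.35, above 98.5% and 95.3% of that list.

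**Figure D4:**
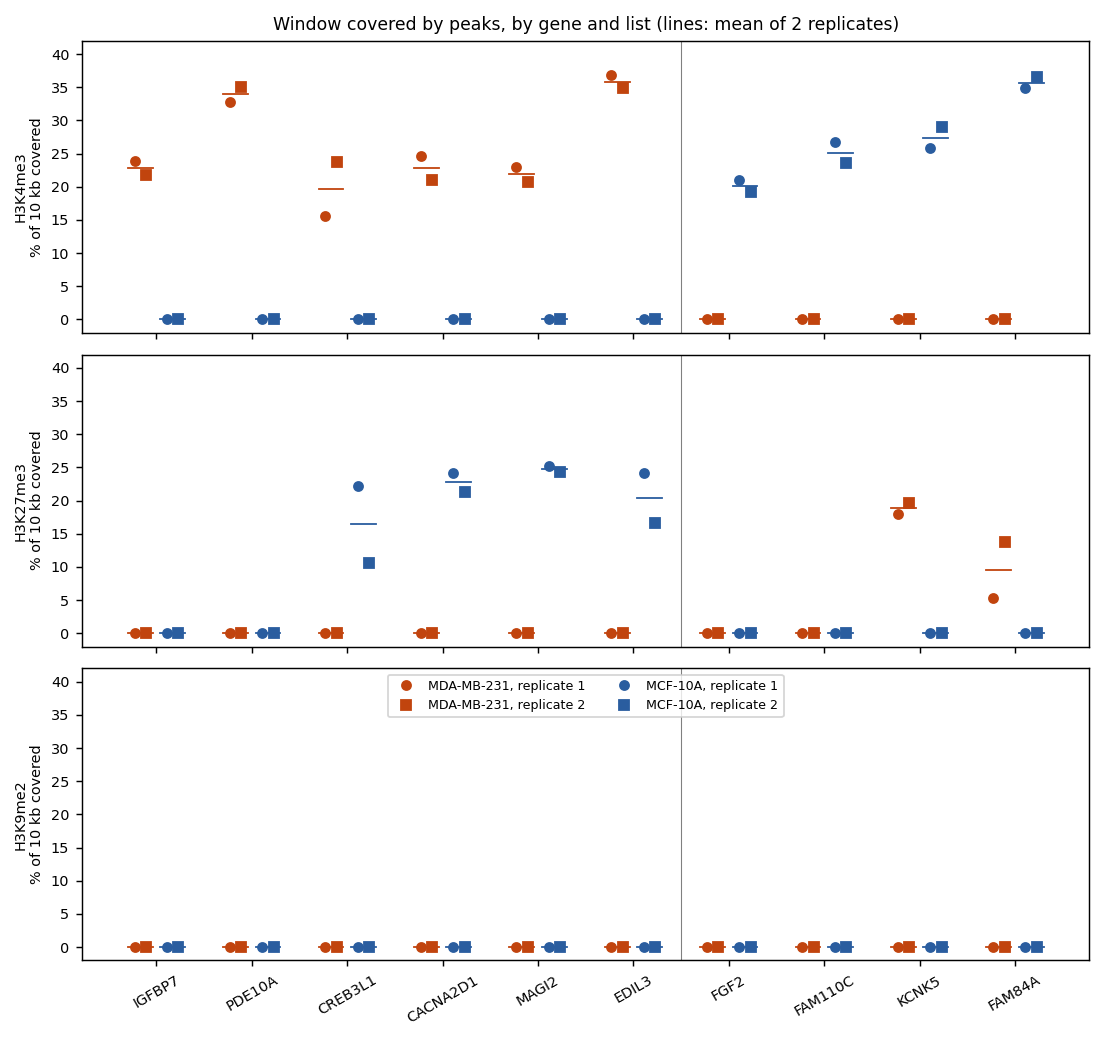
Percent of the 10 kb window at each gene covered by peaks of H3K4me3 (top), H3K27me3 (middle) and H3K9me2 (bottom), 1 point per list, MDA-MB-231 left of MCF-10A at each gene, with short lines for the mean of 2 replicates. H3K27me3 is above 0 at 6 genes and in the line where H3K4me3 is at 0, and H3K9me2 is at 0 throughout.

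The positions of both marks were then laid over each other, as the share of a line's H3K4me3 span that the other line's H3K27me3 covered. At MAGI2 the H3K27me3 of MCF-10A covered 90.2% to 95.1% of the H3K4me3 span of MDA-MB-231 over the 4 pairs of lists, and at CACNA2D1 86.4% to 97.7%. At EDIL3 it covered 43.0% to 65.6%. At these 3 genes both marks therefore occupied largely or partly the same bases, in different lines. At CREB3L1 the H3K27me3 of MCF-10A replicate 1 covered 88.0% and 84.6% of the H3K4me3 spans of MDA-MB-231 replicates 1 and 2, but that of MCF-10A replicate 2 covered 0%.

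In the other direction, at KCNK5 the H3K27me3 of MDA-MB-231 covered 62.3% to 69.3% of the H3K4me3 span of MCF-10A, and at FAM84A 14.6% to 37.8%. The low end at FAM84A came from MDA-MB-231 replicate 1, the short list.

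H3K9me2 was absent from all 10 windows in all 4 of its lists. Over all windows, H3K9me2 was found in both MDA-MB-231 lists and neither MCF-10A list in 0.299%, in both MCF-10A lists and neither MDA-MB-231 list in 2.42%, and in no list in 93.3%, so its absence at 10 genes is what most windows show. Of the 684 windows with enough H3K9me2 to test, limma called 61 (8.92%) higher and 428 (62.6%) lower in MDA-MB-231, and none of the 10 genes was among the windows tested. The closest H3K9me2 peaks lay 14.7 and 14.9 kb from the start of FAM110C, in MCF-10A replicates 1 and 2. In MDA-MB-231 the nearest ones to that gene were 743 and 516 kb away.

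Beyond 5 kb the surroundings differed from gene to gene. FGF2 stood alone in H3K27me3: the nearest peaks were 14.1 and 4.16 Mb away in MDA-MB-231, and 0.875 Mb away in both MCF-10A lists. The growth factor's start also had the same neighbours in both lines for the other marks, with H3K4me3 93.0 to 93.2 kb away and H3K9me2 126 kb away in all 4 lists of each. At EDIL3 and CACNA2D1 the H3K27me3 nearest to the start was more than 3 Mb away in MDA-MB-231 (4.34 and 4.28 Mb at EDIL3, 3.42 and 3.67 Mb at CACNA2D1), against further peaks 28.8 and 662 kb away in MCF-10A at EDIL3 and 47.9 and 28.9 kb away at CACNA2D1. The next H3K4me3 of CACNA2D1 lay 718 kb off in all 4 lists.

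PDE10A had H3K27me3 just past the limit. In MDA-MB-231 the nearest peaks were 1160 and 496 kb away, whereas in MCF-10A replicate 1 a peak with a score of 254.52 lay 5255 bp inside the gene, and in replicate 2 the nearest was 12.4 kb away. The H3K27me3 peak closest to the 5 kb limit from within was that of CREB3L1 in MCF-10A replicate 2, 4500 bp from the start with a score of 68.53. Within 50 kb of the PDE10A start, H3K27me3 covered 0 and 0 bp in MDA-MB-231, against 5389 and 3915 bp in MCF-10A. PDE10A also had low-scoring H3K4me3 peaks 325 kb upstream of this start in both MDA-MB-231 lists. The nearest further peaks in MCF-10A were 680 kb away. The RefSeq start of PDE10A lies 325 kb inside the gene's outer end, so the MDA-MB-231 peaks may lie at that outer end and not before the gene. Whether they do was not determined.

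KCNK5 lay near H3K9me2 in both lines. Within 50 kb of its start H3K9me2 covered 18.59% and 4.56% in MDA-MB-231 replicates 1 and 2, against 2.13% and 2.25% in MCF-10A. The MDA-MB-231 values were both above those of MCF-10A, but differed from each other more than replicate 2 differed from MCF-10A. H3K27me3 in the same span covered 2.56% and 5.34% in MDA-MB-231, against 0% in both MCF-10A lists. IGFBP7 had no H3K27me3 or H3K9me2 within 50 kb in any list of either line, and the same H3K4me3 neighbour, 53.3 to 53.5 kb away, in all 4 lists. FAM84A was isolated in H3K4me3, with the next peak 928 kb away in all 4 lists.

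The windows most like the genes in their cover over the 12 lists were sought by the smallest mean absolute difference from the genes' mean profile. For the 6 genes with H3K4me3 in MDA-MB-231 these were regions at chr19:4580351-4581988 and chr19:4584254-4585059 on hg19, whose windows had the same cover, 0.824 percentage points from the mean profile. These windows overlap each other, so they stand for a single locus. In them H3K27me3 covered 0% in both MDA-MB-231 lists, against 17.2% and 10.9% in MCF-10A. For the 4 genes with H3K4me3 in MCF-10A they were chr19:51519926-51521256, at 0.618 points, and chr12:54331730-54332316, at 0.819 points. At the first of these, H3K27me3 covered 0% and 8.48% in MDA-MB-231, so it lacked the mark in replicate 1, against 0% in both MCF-10A lists. At the second, H3K27me3 covered 9.41% and 10.8% in MDA-MB-231, against 0% in both MCF-10A lists.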

How the data were processed

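The series holds 16 samples: 12 immunoprecipitates with a peak list each, and 4 inputs, which had no peak list here and were not analysed. The build was hg19, and the tools named in the submitters' processing notes are MACS 1.4, Bowtie2, CASAVA 1.6 and bedtools, with no settings. Each list gives positions and a score per peak, which is the authors' deposited value. Its scale is not stated in the sources read here, so scores were compared only inside 1 list. The lists are per replicate, although per the labels' protocols replicates were combined for later work. Depth is unknown, so precision rests on 2 replicates per group.

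Only peaks of chromosomes 1 to 22 and X entered. The 10 genes, their starts and the motifs were chosen with earlier results of these data known. Windows reached 5 kb either side of the 10 starts, or of the midpoint of each H3K4me3 region merged over the 4 lists (overlap of at least 1 bp). Covered bp plus a pseudocount of 100 bp was log2-transformed and tested with limma 3.58.1 in R 4.3.3 (trend, empirical Bayes, line as the only term), two-sided, on windows covered in at least 2 of 4 lists, with Benjamini-Hochberg adjustment over all windows of a mark. Where a line is listed at 0, no fold was computed. In a test on simulated data the changed windows were recovered. These had been given peaks in both lists of a single line and none in the other, so their recovery does not bear on partial changes. Unchanged windows, whose peaks were placed at random without regard to line, were called as well, more often than the threshold allows. Whether the peaks in those windows had split by line was not recorded. The adjusted p therefore describes presence in 2 against 2 lists and is not a firm error rate. All 10 genes are named, with the 2 most alike regions per direction. Alternatives were pseudocounts of 10 and 1000 bp, no filter, scaling by total coverage, windows of 2 and 10 kb either side, a minimum score of 100, equal list lengths, a replicate block, presence in either replicate, and each list left out. Python 3.11.15 with NumPy 2.4.6, pandas 2.3.3 and matplotlib 3.10.9 did the rest. Strands and promoter sequences came from RefSeq tables (GRCh38.p14), used by symbol only. PDE10A and EDIL3 had more than 1 entry, of which the first was used.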

Additional observations from a re-analysis of the deposited data

How the results depend on the processing

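The genes' H3K4me3 patterns kept their counts of 6 and 4 under each alternative tried, and H3K9me2 stayed at 0. The genes were chosen by their H3K4me3, so the stability of that pattern is no support for it. Leaving a list out, or asking for presence in either replicate, could not change the pattern. The 4 genes with MCF-10A-only H3K27me3 became 3 with windows of 2 kb, a score of at least 100 or equal lists, CREB3L1 being the one lost, and the 2 with MDA-MB-231-only H3K27me3 became 0 with a score of at least 100. Of 61 refits of single genes, 57 passed, 4 did not and 0 reversed. Those 4 are KCNK5 and FAM84A without either MCF-10A list, and the cause was not tested. FAM84A was close to the threshold with a pseudocount of 1000 bp (limma adjusted p = 0.04999). Genes left with H3K27me3 in a single list were not tested. Each refitted gene was at 0 bp in every list of 1 line under each alternative, so none could reverse. The passes therefore add little to the presence itself.

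Over all windows, the count with higher H3K27me3 in MDA-MB-231 was 33 with a score of at least 100 and 0 to 38 with each list left out, and the count with lower H3K27me3 was 0 to 1175. The zeros came from limma without either MCF-10A list. Windows marked in the remaining MCF-10A list alone then failed the filter, which bears on the lower count; the cause of the zeros for the higher count was not tested. At an unadjusted p under 0.05, 37 were higher and 16 lower without MCF-10A replicate 1, and 35 and 31 without replicate 2. For H3K9me2 the higher count was 28 and 126 with windows of 2 and 10 kb, 11 with a score of at least 100, and 1 to 15 with each list left out. The lower count was 283 and 660 with these windows, 109 with a score of at least 100, 211 with equal lists, and 0 to 453 with each list left out, with 9 and 11 at an unadjusted p under 0.05 by limma where it was 0.

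With the replicate number as a block, limma called 166 windows higher and 813 lower for H3K27me3 and 58 and 431 for H3K9me2, and the 6 genes passed. The labels do not say that a number marks a batch, and same-numbered lists did not clearly deviate together (r = 0.041 over 1636 windows for H3K27me3, 0.107 over 684 for H3K9me2), so the numbers were not taken as pairs. Depth limits what an absent peak shows.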
